A study of Mus musculus with 8 samples.

Results

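The Dlg family of membrane-associated guanylate kinases comprises 4 genes, Dlg1, Dlg2, Dlg3 and Dlg4, which encode SAP97, PSD-93, SAP102 and PSD-95. They were picked by gene symbol from the 25834 genes of the count table, and all 4 passed the filter on low counts that left 16251 genes for testing. The table holds RNA-seq read counts from the hippocampi of 8 male mice, 4 control and 4 SAP97-cKO, with 1 library per mouse. SAP97-cKO mice were Nestin-cre+/-; SAP97fl/fl, so that Cre recombined both floxed SAP97 (Dlg1) alleles. Controls were littermates of the genotypes Nes-cre+/-, SAP97fl/fl or wild-type. Neither the labels nor the methods state which of these each control library came from, or the age at which RNA was taken. Nestin-Cre acts in neural progenitors, and hence in the neurons, astrocytes and oligodendrocytes that derive from them, whereas cells of other lineages in the dissected tissue, such as microglia, lie largely outside its reach. A hippocampus is a mixture of all these cells, so that in these data fewer cells of a type and less RNA per cell cannot be told apart.

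Dlg proteins are scaffolds of the inner face of the membrane. Each carries PDZ domains, which hold the carboxy-terminal tails of receptors, channels and adhesion proteins, followed by an SH3 domain and a guanylate kinase-like domain that binds other scaffolds instead of making nucleotides. In the hippocampus they hold AMPA and NMDA receptors and potassium channels near the postsynaptic density. PSD-95 is the best known scaffold of mature excitatory synapses, SAP102 is prominent early in development, and SAP97 binds the GluA1 subunit of AMPA receptors and is also found at epithelial junctions. Because the proteins share partners, the question that the comparison addresses is whether transcripts of the other members, or of their partners, differed where Dlg1 was deleted.

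The methods of the study used exon 10 of SAP97 to check the deletion. Normalized counts of reads on it are reported there as strongly reduced in SAP97-cKO samples, which the authors took to affirm the knockdown. The methods name no transcript for that exon. It was taken here, as an assumption, to be exon 10 of the principal Dlg1 transcript of the GENCODE M21 annotation (26 exons). In Dlg1-201 and Dlg1-204, exon 10 is another exon, of 137 and 157 bp. In the principal transcript it is a coding exon of 170 bp at chr16:31791715-31791884 (GRCm38, plus strand). The same 170 bp exon is present in all 6 coding Dlg1 transcripts with at least 10 exons, in 4 of them as exon 10. Its length leaves a remainder of 2 when divided by 3. Each paralog has a whole coding exon of the same length that aligns with it, which is exon 6 of a Dlg2 transcript (chr7:91900735-91900904), exon 4 of a Dlg3 transcript (chrX:100772367-100772536) and exon 6 of a Dlg4 transcript (chr11:70031089-70031258), all on the plus strand. The 4 exons are shown because they have the same length and can be set base against base, with capitals for the 85 bases that are identical in all 4.
Dlg1: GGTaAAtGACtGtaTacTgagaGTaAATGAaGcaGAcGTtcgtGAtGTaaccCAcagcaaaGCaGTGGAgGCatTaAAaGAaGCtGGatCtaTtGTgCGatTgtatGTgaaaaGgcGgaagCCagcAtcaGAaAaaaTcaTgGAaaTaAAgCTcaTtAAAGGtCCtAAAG
Dlg2: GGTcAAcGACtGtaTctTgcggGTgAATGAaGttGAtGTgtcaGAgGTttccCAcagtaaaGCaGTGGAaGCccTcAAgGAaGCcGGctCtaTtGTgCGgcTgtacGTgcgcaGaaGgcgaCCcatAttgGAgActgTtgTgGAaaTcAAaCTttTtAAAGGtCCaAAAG
Dlg3: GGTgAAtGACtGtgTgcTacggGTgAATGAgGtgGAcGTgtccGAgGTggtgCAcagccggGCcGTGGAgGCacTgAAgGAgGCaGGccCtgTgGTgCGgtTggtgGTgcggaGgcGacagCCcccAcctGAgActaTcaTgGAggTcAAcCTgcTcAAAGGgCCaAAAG
Dlg4: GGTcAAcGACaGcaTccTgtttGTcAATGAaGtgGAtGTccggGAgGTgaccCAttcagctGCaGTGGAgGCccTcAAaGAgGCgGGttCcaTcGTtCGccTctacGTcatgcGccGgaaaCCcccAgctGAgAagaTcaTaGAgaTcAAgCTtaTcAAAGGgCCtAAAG
Compared without gaps, 69.4% of the bases of the Dlg1 exon were identical in Dlg2, 66.5% in Dlg3 and 68.2% in Dlg4. The local alignment that located the Dlg4 exon held 2 gaps, and those for Dlg2 and Dlg3 held 0. The longest run of identical bases that the exon shared with a paralog was 11 in Dlg2, 9 in Dlg3 and 11 in Dlg4. Over whole transcripts, the longest exact run shared by any pair of the 4 genes was 31 bases, between Dlg1 and Dlg2. Of all 50-base words in the annotated transcripts, 0.596% for Dlg1, 0.781% for Dlg2 and 1.06% for Dlg4 also occur in a transcript of some other gene, and 0 for Dlg3. Exon 10 makes up 1.58% of the annotated exon length of Dlg1, and counts of single exons were not analysed here, so each Dlg1 value below is the sum of reads over the whole gene, with any reads from a transcript that lacks exon 10 included.

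Dlg1 (ENSMUSG00000022770, chromosome 16, 31663443 to 31875129) was the only member past the false discovery rate of 0.25 that the study used. After scaling of library sizes by edgeR's TMM method, the control libraries 1 to 4 held 4127, 4549, 3982 and 4690 Dlg1 reads, and the SAP97-cKO libraries 1 to 4 held 2353, 3064, 2143 and 2008. All 4 SAP97-cKO libraries lay below all 4 control libraries, and SAP97-cKO 2 was the highest of its group. The mean was 4337 ± 336 reads in control libraries and 2392 ± 470 reads in SAP97-cKO libraries (SD, n = 4 each), which is 55.2% of control. The log2 fold change was -0.86 (SE 0.12, adjusted p = 0.143 by the quasi-likelihood test of edgeR, adjusted over all genes tested after Benjamini and Hochberg), and its 95% interval corresponded to a change of -54.4% to -33.2%. By unadjusted p, Dlg1 ranked 2 among all genes tested. The share of all genes called lower was 0.283%, and that called higher was 0.0123%. The Dlg1 call was lost without control 2 (adjusted p = 0.424), without SAP97-cKO 3 (0.524) or without SAP97-cKO 4 (0.346), while the log2 fold change remained between -1.0 and -0.78 for every library left out.

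Dlg4 (ENSMUSG00000020886, chromosome 11, 70016942 to 70047522), which encodes PSD-95, had the most reads of the family. It had 27841, 25755, 25439 and 28036 reads in control libraries 1 to 4 and 31249, 28623, 31608 and 32360 in SAP97-cKO libraries 1 to 4. Every SAP97-cKO library was above every control library, by the narrow margin between 28036 and 28623 (exact two-sided permutation test over the 70 assignments, p = 0.0286, the smallest that 4 against 4 can give). The groups did not overlap in this direction for 2.78% of all genes tested, and in the opposite direction, that of Dlg1, for 3.47%. With means of 26768 ± 1360 and 30960 ± 1626 (SD, n = 4 each), the difference came to 0.21 on the log2 scale (SE 0.072). Dlg4 did not pass the threshold after adjustment (unadjusted p = 0.0150, adjusted p = 0.358, edgeR), and its unadjusted 95% interval ran from 3.53% to 29.2% above control. It did pass with DESeq2 (adjusted p = 0.0814), which called 1033 genes in all against 48 by edgeR, and with control 1 left out (adjusted p = 0.232 by edgeR, with 1675 genes called).

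Dlg2 (ENSMUSG00000052572, chromosome 7, 90476672 to 92449247), which encodes PSD-93, gave values of much the same size. Control libraries 1 to 4 held 15419, 13613, 13829 and 13399 Dlg2 reads, and SAP97-cKO libraries 1 to 4 held 15646, 17434, 15244 and 16007. The groups overlapped through a single pair, since control 1 was above SAP97-cKO 3 (exact two-sided permutation test, p = 0.0571). The log2 fold change of the means, 14065 ± 920 and 16083 ± 953 (SD, n = 4 each), was 0.19 (SE 0.073, unadjusted p = 0.0241, adjusted p = 0.376, edgeR), with an unadjusted 95% interval of 2.16% to 28.0% above control. Among all genes tested, 4.73% were higher and 7.01% lower in SAP97-cKO hippocampi at an unadjusted p under 0.05, the level that Dlg2 and Dlg4 reached on the higher side. Dlg2 passed the adjusted threshold with DESeq2 (adjusted p = 0.184) and without control 1 (adjusted p = 0.206, edgeR). Its exons share 150 bp with Gm45131 and 75 bp with Gm45159 on the same strand, and no exon of the other 3 members overlaps another annotated gene.

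Dlg3 (ENSMUSG00000000881, chromosome X, 100767722 to 100818410), which encodes SAP102, did not separate the groups. Control libraries 1 to 4 held 10628, 9842, 9625 and 7818 Dlg3 reads, and SAP97-cKO libraries 1 to 4 held 10586, 9943, 10731 and 10892. Control 4 was well below the other 7 libraries, and control 1 lay inside the SAP97-cKO range (exact two-sided permutation test, p = 0.0857). The means were 9478 ± 1188 and 10538 ± 416 (SD, n = 4 each), the log2 fold change was 0.15 (SE 0.092, unadjusted p = 0.125, adjusted p = 0.518, edgeR), and the interval ran from -3.45% to 28.0%. Without control 4 the log2 fold change was 0.07. At their upper ends these intervals allow Dlg2, Dlg3 and Dlg4 to be 28.0%, 28.0% and 29.2% above control, and none of the 3 includes a fall of the size of that of Dlg1.

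**Figure D1:**
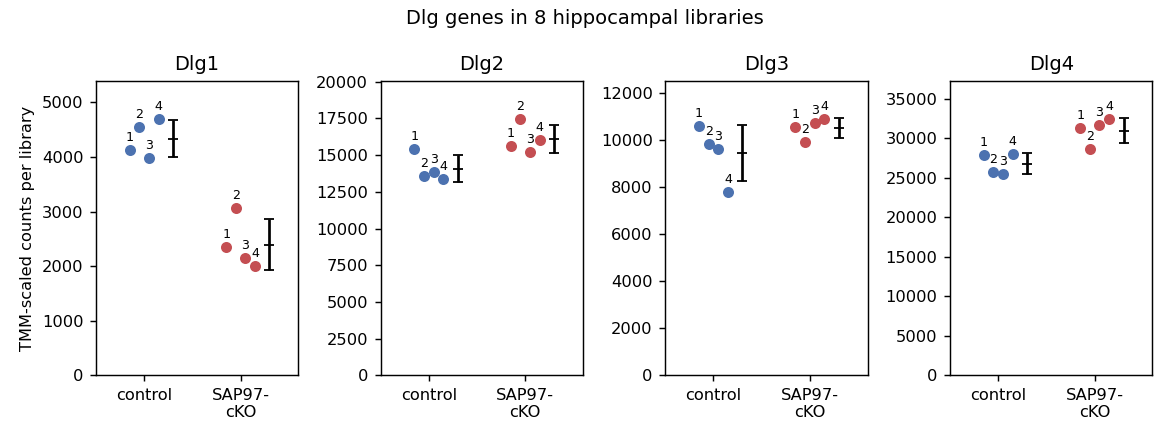
TMM-scaled read counts (vertical axes, each starting at 0) of the 4 Dlg genes in control and SAP97-cKO hippocampi, with 1 point per library and the mean ± SD of 4 libraries. The SAP97-cKO points of Dlg1 (2008 to 3064) sit below all controls, those of Dlg4 (28623 to 32360) sit just above all controls, and those of Dlg2 and Dlg3 overlap the controls.

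**Figure D2:**
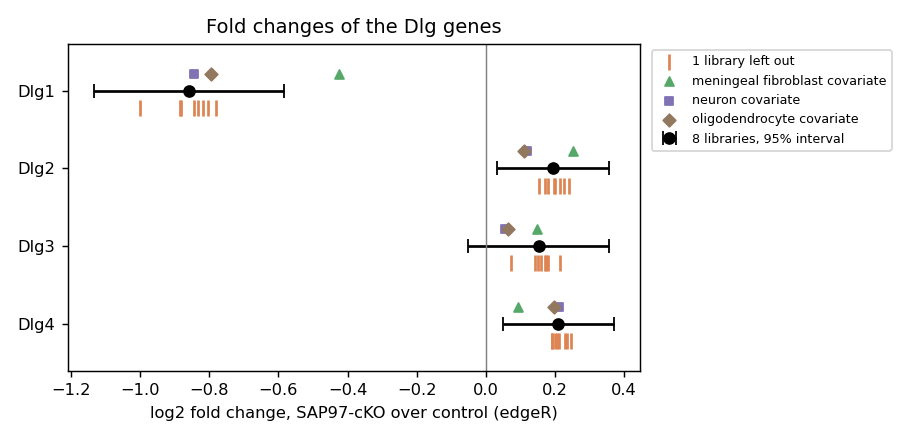
Log2 fold change, SAP97-cKO over control, of each Dlg gene, with its 95% interval, the values with each library left out in turn, and the values with the mean log2 level of a cell type list as a covariate. Dlg1 is at -0.86 and at -0.43 with the meningeal fibroblast list, which is confounded with genotype, in the fit. Dlg2, Dlg3 and Dlg4 are at 0.19, 0.15 and 0.21 and run from 0.06 to 0.25 over the covariates and the libraries left out.

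Taken within each library, the balance of the family differed in the same way against each paralog. For each Dlg1 read there were 3.74, 2.99, 3.47 and 2.86 Dlg2 reads in control libraries 1 to 4 and 6.65, 5.69, 7.11 and 7.97 in SAP97-cKO libraries 1 to 4. Dlg3 reads per Dlg1 read ran from 1.67 to 2.58 in control and from 3.24 to 5.42 in SAP97-cKO libraries. Dlg4 reads per Dlg1 read ran from 5.66 to 6.75 and from 9.34 to 16.1. None of these ranges overlapped. On the log2 scale the ratio of Dlg1 to its paralog was lower in SAP97-cKO hippocampi by 1.07 for Dlg2, 1.04 for Dlg3 and 1.08 for Dlg4 (differences -1.07, -1.04 and -1.08; exact two-sided permutation p = 0.0286 for each, and 0.0286 after Benjamini-Hochberg adjustment over the 3 ratios compared, the smallest the design allows). These ratios do not depend on library scaling, and they share the Dlg1 reads, so they are not independent of each other. Each ratio holds the deleted gene, whose groups did not overlap by itself, so these tests add little beyond the Dlg1 values.

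Levels can be compared between the genes only per length. Per kb of annotated exon (10.74 kb for Dlg1, 16.28 kb for Dlg2, 5.84 kb for Dlg3 and 13.25 kb for Dlg4), the order in control hippocampi was Dlg4 at 2020 ± 103 TMM-scaled reads per kb, Dlg3 at 1622 ± 203, Dlg2 at 864 ± 56.5 and Dlg1 at 404 ± 31.3 (SD, n = 4). The order was the same in SAP97-cKO hippocampi, at 2336 ± 123, 1803 ± 71.1, 988 ± 58.6 and 223 ± 43.8. Per kb of the longest coding transcript instead, the places of Dlg2 (1715 to 1974 in control libraries) and Dlg3 (1578 to 2144) could not be separated, while Dlg1 remained the lowest and Dlg4 the highest of the 4. SAP97 transcripts were thus the smallest component of the family, with 8.25 ± 0.88% of the family's reads per kb in control and 4.18 ± 0.91% in SAP97-cKO hippocampi (SD, n = 4). In reads per kb, the mean differences from control were -181 for Dlg1, 124 for Dlg2, 181 for Dlg3 and 316 for Dlg4. The sum over the 4 genes was 4910 ± 238 per kb in control libraries (4713 to 5251) and 5350 ± 106 in SAP97-cKO libraries (5218 to 5476), ranges that overlapped. The data hold RNA only, and say nothing of protein amounts. By western blot the paper found no significant difference in hippocampal PSD-95, PSD-93 or SAP102 protein between control and SAP97-cKO mice.

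**Figure D3:**
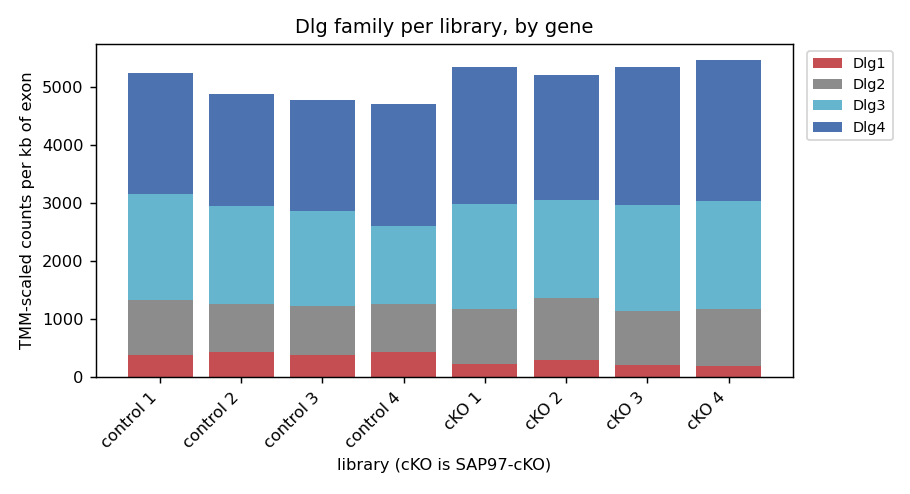
TMM-scaled reads per kb of annotated exon (vertical axis from 0) in each of the 8 libraries, stacked by gene. The Dlg1 layer is the thinnest in every library, and the total runs from 4713 to 5251 in control and from 5218 to 5476 in SAP97-cKO libraries.

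Levels of cell type markers are given here beside the members. Of these lists, only that of meningeal fibroblasts had summed levels that did not overlap between the groups. All 10 markers of meningeal fibroblasts were below 0 in log2 fold change, with a median of -1.01. The threshold was passed by 6 of 10, against 0.283% of all genes tested that were called lower. Their summed levels were 273 to 486 CPM (reads scaled to library size) in control and 164 to 264 in SAP97-cKO libraries. Of this list, Col1a2, Col3a1, Slc6a13, Ogn, Mgp and Aldh1a2 are also among the genes that the paper lists as differing in these same libraries. The calls are therefore not independent of that list. SAP97-cKO 2, which had the highest Dlg1 of its group, also had the highest meningeal sum (264) and choroid plexus sum (2326) of its group. The control group had no such match, since control 4, with the most Dlg1 reads (4690), had the lowest meningeal sum (273) and choroid plexus sum (169). Control 2, with the next most Dlg1 reads (4549), had the highest meningeal sum (486) and choroid plexus sum (6755). All 8 choroid plexus markers were also below 0, with a median of -1.48, and their sum ranged widely, from 169 to 6755 in control and from 95.1 to 2326 in SAP97-cKO libraries. None of these 8 passed by edgeR, with 0 at an unadjusted p under 0.05. With the mean log2 level of the meningeal markers as a covariate the log2 fold change of Dlg1 was -0.43 (SE 0.22, adjusted p = 0.999). The meningeal sums of the groups did not overlap, nor did the levels of 8 of the 10 genes, against 3.47% of all genes tested on the lower side. Covariate and genotype are therefore confounded in that fit, in which 0 genes were called. It cannot divide the Dlg1 difference between genotype and tissue composition, and the same limit holds for other genes fitted with this covariate. With the oligodendrocyte markers the log2 fold change of Dlg1 was -0.79 (adjusted p = 0.853). With the neuron markers, a fit chosen after seeing the data, it was -0.84 (adjusted p = 0.554). All 8 oligodendrocyte markers were below 0 (median -0.51, summed levels of 5707 to 9159 in control and 4439 to 8017 in SAP97-cKO libraries). Lower at an unadjusted p under 0.05 by edgeR were 6 of these 8, against 7.01% of all genes tested. The 8 neuron markers had a median of 0.12, with 6 above 0 and sums of 7330 to 8195 and 7765 to 8740. The sums of hippocampal subfield markers (878 to 1126 and 850 to 1233), oligodendrocyte precursors (345 to 414 and 346 to 412), astrocytes (5678 to 6732 and 5951 to 7287), microglia (359 to 467 and 347 to 444) and endothelium (194 to 223 and 147 to 250) overlapped between groups. All 7 endothelial markers were below 0 (median -0.19), with 0 at an unadjusted p under 0.05 by edgeR. No marker of any list was at 0 in any library, neuron and subfield markers included, and the gene with the most reads was Snap25, Nr3c2, Mbp, Olig1, Slc1a2, Flt1, Igf2 and Ttr in the neuron, subfield, oligodendrocyte, precursor, astrocyte, endothelial, meningeal and choroid plexus lists. The part of these cells in the Dlg values was not tested beyond these fits, of which the meningeal one cannot test it.

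Set against the mean log2 level of the neuron markers in the same library, the paralogs were closer to control, which did not hold for Dlg4 in a covariate fit. The difference between the groups on this scale was 0.086 for Dlg2, 0.053 for Dlg3 and 0.10 for Dlg4, each with overlapping ranges, and -0.98 for Dlg1, without overlap. Dlg4 minus the neuron markers ran from 0.11 to 0.35 in control and from 0.15 to 0.43 in SAP97-cKO libraries. With the neuron markers as a covariate instead, Dlg4 was at 0.21 (unadjusted p = 0.0342, adjusted p = 0.999, edgeR), the same as without, while Dlg2 was at 0.12 and Dlg3 at 0.06. With the meningeal covariate Dlg4 was at 0.09, Dlg2 at 0.25 and Dlg3 at 0.15, and with the oligodendrocyte covariate they were at 0.20, 0.11 and 0.06, none past the threshold.

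**Figure D4:**
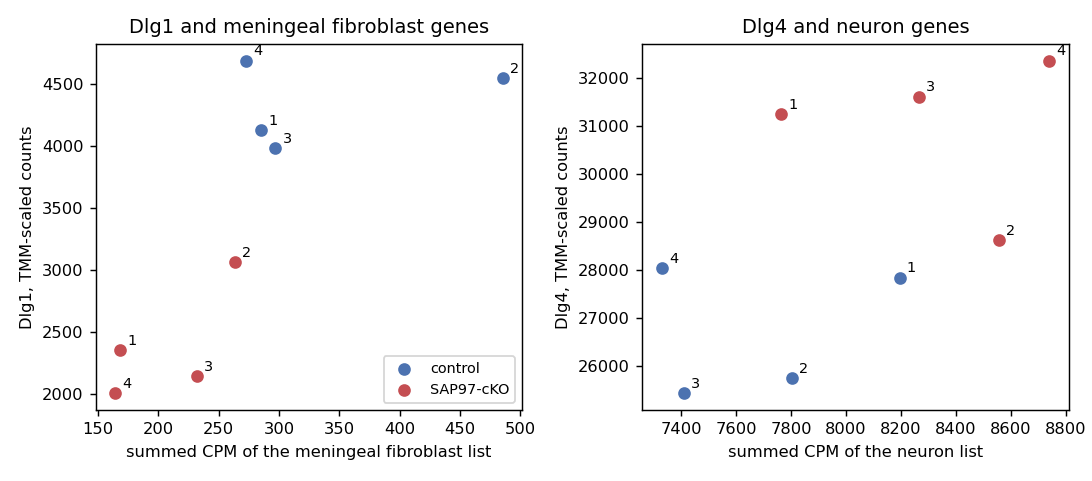
Left, TMM-scaled Dlg1 reads against the summed level of 10 meningeal fibroblast markers in CPM, and right, Dlg4 reads against the summed level of 8 neuron markers, with 1 point per library. SAP97-cKO 2 has the highest Dlg1 (3064) and the highest meningeal sum (264) of its group. Among controls, control 4 has the highest Dlg1 (4690) and the lowest meningeal sum (273), and control 2 the next highest Dlg1 (4549) and the highest meningeal sum (486). The neuron sums of the groups overlap (7330 to 8195 and 7765 to 8740).

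Other membrane-associated guanylate kinases, which lie outside the Dlg family or, as Dlg5, are distant from it, did not share a direction. Of 18 genes 17 passed the filter on low counts and were tested, with 7 above and 10 below 0 in log2 fold change and a median of -0.09, against -0.01 for all genes tested. None passed the threshold by edgeR or limma-voom, 1 did by DESeq2 (Mpp6, lower), and 3 were at an unadjusted p under 0.05 by edgeR. Over all 16251 genes tested, DESeq2 called 588 lower and 445 higher, and 1907 were at an unadjusted p under 0.05 by edgeR. Mpp6, a palmitoylated scaffold of the p55 group, had 1492, 1447, 1455 and 1583 reads in control libraries 1 to 4 and 1334, 1314, 1265 and 1193 in SAP97-cKO libraries 1 to 4, without overlap (log2 fold change -0.23, unadjusted p = 0.00541, adjusted p = 0.331, edgeR). Mpp4, known from photoreceptors, was scarce here, with means of 23.6 and 12.5 reads (-0.92, SE 0.32, unadjusted p = 0.0170, adjusted p = 0.365, edgeR). Mpp2, a postsynaptic scaffold and the gene of this list with the most reads, was at 0.22 (unadjusted p = 0.0357, adjusted p = 0.400, edgeR), with overlapping groups, and at 0.04 and 0.05 with the oligodendrocyte and neuron covariates. Magi2, a synaptic scaffold and another abundant gene, was at 0.22 (0.11 without control 4 and 0.32 without control 1). Tjp1, also abundant, encodes the tight junction protein ZO-1 and was at -0.09 (-0.14 to -0.04 with a library left out). The groups did not overlap, with SAP97-cKO lower, for Mpp1, Mpp4 and Mpp6 (3 of 17, against 3.47% of all genes tested), Mpp1 being singled out after its values were seen. For Mpp4 the nearest libraries of the groups were at 14.6 and 14.5 reads.

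The 50 genes whose products are known to bind Dlg proteins were all tested. None passed the threshold by edgeR or limma-voom. By DESeq2 14 did, all higher in SAP97-cKO hippocampi, against 445 higher and 588 lower of all 16251 genes tested. By edgeR, 17 were higher and 1 lower at an unadjusted p under 0.05 (34% higher, against 4.73% of all genes tested), 39 were above 0 (78%, against 47.2%), and the median log2 fold change was 0.19. With a library left out, the median ran from 0.11 without control 4 to 0.23 without control 1. The 18 partner genes at an unadjusted p under 0.05 became 4 with the meningeal, 6 with the oligodendrocyte and 9 with the neuron covariate. Among all genes tested, the 1907 at that level became 548, 637 and 732 in the same fits. For 10 partner genes every SAP97-cKO library was above every control library (20%, against 2.78% of all genes tested). The neuron markers moved the same way, with a median of 0.12 and 75% above 0. Of these 8 markers 3 (37.5%) were higher at an unadjusted p under 0.05 by edgeR, and 12.5% did not overlap on the higher side. These shares are near those of the partner genes for the first 2 measures. The part of neurons in the partner values was not tested further than by the covariate fits.

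Among the partners, the 20 receptors and channels had a median log2 fold change of 0.17 with 15 above 0. Gria1, the AMPA receptor subunit GluA1, was at 0.17 and varied widely, with 31246 to 43067 reads in control and 31425 to 48479 in SAP97-cKO libraries. The NMDA receptor subunits Grin2b and Grin2a were at 0.48 (SE 0.26) and 0.32. Control 4 held 9144 Grin2b reads against 20578 to 26095 in the other controls, and without it Grin2b was at 0.24, Grin2a at 0.12 and Gria1 at 0.09. Without control 1, Grin2b was at 0.65, Grin2a at 0.44 and Gria1 at 0.25. With the meningeal covariate, Gria1 and Grin2a changed sign, to -0.21 and -0.019. At an unadjusted p under 0.05 were the potassium channel genes Kcna4 (0.29, adjusted p = 0.332, edgeR) and Kcnj4 (0.33, adjusted p = 0.373, edgeR), the latter at 0.68 with the meningeal covariate. Kcna4, the voltage-gated subunit Kv1.4, held 972, 1047, 889 and 1000.4 reads in control libraries 1 to 4 and 1113, 1105, 1363 and 1213 in SAP97-cKO libraries 1 to 4, without overlap. By hippocampal qPCR the paper found no significant difference for GluA1 or for its selected SAP97 interactors, among them Kcna4 and Dlgap4.

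The 10 adhesion and surface proteins had 9 genes above 0, a median of 0.21 and 5 at an unadjusted p under 0.05. They were the neuroligins Nlgn1 (0.31), Nlgn2 (0.26) and Nlgn3 (0.21), postsynaptic partners of neurexins, with Adgrb1 (0.28), which encodes the adhesion receptor BAI1, and Lrfn2 (0.20), which encodes SALM1. Nlgn1, with the smallest p of this list, held 3311, 3189, 3027 and 2748 reads in control libraries 1 to 4 and 3654, 3825, 3621 and 4066 in SAP97-cKO libraries 1 to 4, so that the lowest SAP97-cKO library exceeded the highest control (unadjusted p = 0.00181, adjusted p = 0.302, edgeR). Adam22, the LGI1 receptor, was at 0.20 and was not among the 5. Without control 4, Nlgn3 was at 0.13 and Adam22 at 0.11, and without control 1 they were at 0.26 and 0.25. With the neuron covariate Nlgn1 was at 0.20, Nlgn2 at 0.13 and Adgrb1 at 0.14.

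The 20 enzymes, scaffolds and motors had 15 genes above 0, a median of 0.20, and 10 higher at an unadjusted p under 0.05. Dlgap3, a SAPAP protein that binds the guanylate kinase-like domain of Dlg proteins, came nearest to the threshold of all partner genes. It held 10449, 9161, 10003 and 10311 reads in control libraries 1 to 4 and 12224, 12297, 12057 and 13855 in SAP97-cKO libraries 1 to 4, without overlap. Its log2 fold change was 0.34 (SE 0.073, unadjusted p = 8.44e-04, adjusted p = 0.268, edgeR), and 0.12 with the meningeal covariate (unadjusted p = 0.438). The other SAPAP genes were at 0.42 for Dlgap2, 0.23 for Dlgap4 and 0.21 for Dlgap1, and at 0.24, 0.10 and 0.14 with the neuron covariate. Also at an unadjusted p under 0.05 were Begain (0.26), whose product binds the guanylate kinase-like domain of PSD-95, and Apc (0.28), a tumour suppressor that binds microtubules. Camk2a, the alpha subunit of CaMKII, was at 0.28 and the kinesin gene Kif1b at 0.17 (0.06 without control 4 and 0.22 without control 2). Camk2a changed sign, to -0.045, with the meningeal covariate. The single partner gene that was lower at an unadjusted p under 0.05 was Cript (-0.20, unadjusted p = 0.0484, edgeR), which encodes a microtubule-linked ligand of the PSD-95 PDZ domains and was singled out after its values were seen.

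**Figure D5:**
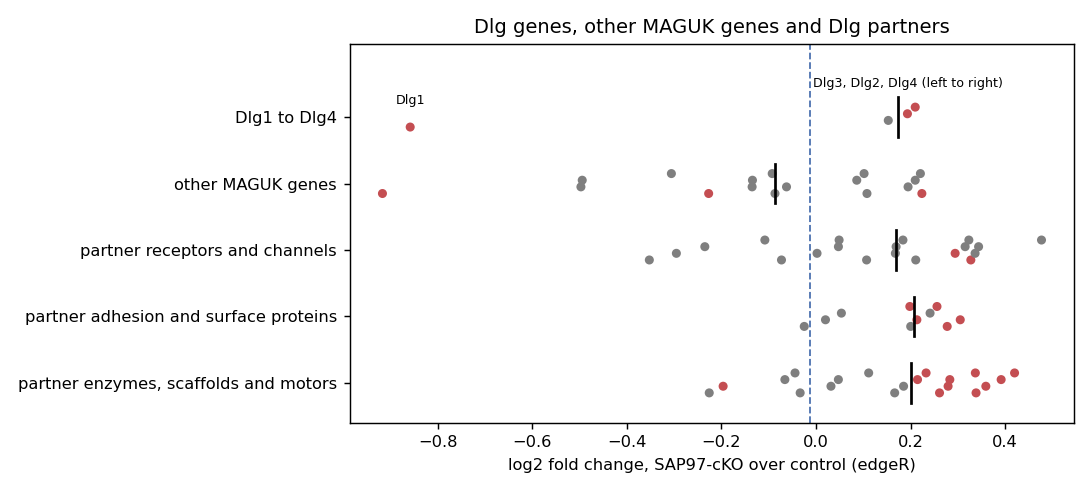
Log2 fold change, SAP97-cKO over control, of the 4 Dlg genes, 17 other membrane-associated guanylate kinase genes and 50 partner genes in 3 lists, with 1 point per gene, red for an unadjusted p under 0.05, black bars for list medians and a dashed line for the median of all genes tested. The partner medians are 0.17, 0.21 and 0.20, that of the other guanylate kinase genes is -0.09, and Dlg1 stands apart from its paralogs at -0.86.

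Across the 8 libraries, the genes whose log2 level followed each member most closely differed between members. The values are a description, over libraries that share their tissue, their genotype contrast and their scaling. For Dlg1 they were C2, Cdh1 and Cnep1r1 (Pearson r of 0.989, 0.979 and 0.974, and 0.931, 0.964 and 0.888 after the group means were removed). For Dlg2 they were Nol4, Gm26982 and Apc (0.979, 0.969 and 0.968, and 0.949, 0.959 and 0.914 without group means). For Dlg3 they were Tnr, Wdr26 and Slc35e1 (0.999, 0.997 and 0.993, and 0.998, 0.997 and 0.991). For Dlg4 they were Matk, Fbxl16 and Cbx6 (0.971, 0.966 and 0.963, and 0.924, 0.903 and 0.860). Apc, the nearest to Dlg2 after Nol4 and Gm26982, is the only one of these 12 that is also a partner gene.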

How the data were processed

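Hippocampal RNA from 8 male mice (4 control, 4 SAP97-cKO, 1 library each, grouped by the sample labels) was sequenced by the study after TruSeq preparation. The replicates are separate mice. With STAR 2.5.3a the authors mapped reads to the mouse genome (mm10, GRCm38.p5), removed ribosomal and mitochondrial reads, resampled libraries to a common depth and deposited whole-number read counts per gene, so totals were even (37388177 to 37426572) and do not show the depth sequenced. Neither strand use nor read length is stated in the labels or methods. The authors' deposited log2 fold changes, p-values and q-values come from their own comparison and were not used.

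Genes were kept by filterByExpr (minimum count 10, minimum total 15), which removed 9583 of 25834. The quasi-likelihood test of edgeR 4.0.16 (R 4.3.3) with TMM scaling and Benjamini-Hochberg adjustment over 16251 genes was read at an FDR of 0.25, the study's threshold. Each SE is the fold change divided by the square root of F, intervals are 95%, and single values had exact two-sided permutation tests. Log2 CPM used a prior count of 2. No 2 libraries agreed within counting noise (7.30 to 52.0 in chi-square per gene). The test was checked on simulated counts. Lengths, coordinates and sequences come from GENCODE M21 (GRCm38).

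Named genes are the members, the 3 genes with the most reads and up to 6 with an unadjusted p under 0.05 per list, the 3 genes most like each member, and the top marker per cell type, of which a few are not reported here. Lists came from general knowledge. Members and lists were chosen with earlier results of these data known. Alternatives were limma-voom (limma 3.58.1), DESeq2 1.42.0, other scalings and filters, the replicate block, cell type covariates, an FDR of 0.05 and each library left out.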

Additional observations from a re-analysis of the deposited data

Results flagged for a closer look

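Among 90 groups of 4 libraries checked for the genes named above, 7 held a library far from the other 3, where chance alone flags about 1 in 20. In the SAP97-cKO group, library 4 stood apart for Dlgap3 (13855 TMM-scaled reads against 12057 to 12297 in the others), Begain (4059 against 3814 to 3824) and Dlgap2 (2731 against 2211 to 2296), on the high side, and for Nlgn3 (1948 against 2127 to 2161), on the low side. SAP97-cKO 1 was high for Adam22 (7949 against 7348 to 7413), and SAP97-cKO 2 was low for Slc35e1 (2476 against 2574 to 2592). In the control group, library 4 was low for Kif1b (26278 against 35956 to 37766). No group of Dlg1, Dlg2, Dlg3 or Dlg4 held such a library.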

How the results depend on the processing

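Dlg1 kept its direction under every alternative and lost its call with the meningeal fibroblast covariate (-0.43, adjusted p = 0.999), the oligodendrocyte covariate (-0.79), the neuron covariate chosen after seeing the data (-0.84), at an FDR of 0.05 (-0.86), and without 3 of the 8 libraries (range over libraries left out -1.0 to -0.78). Dlg2 and Dlg4 passed with DESeq2 (0.20 and 0.22) and without control 1 (ranges over libraries left out 0.15 to 0.24 and 0.19 to 0.25), and Dlg3 passed under none (0.07 to 0.21). The causes were not tested. The count of genes called, 48 by edgeR (46 lower and 2 higher), was 1033 with DESeq2 (588 and 445), 95 without scaling, 104 without the filter, 7 with the neuron covariate and 0 with the meningeal covariate (548 at an unadjusted p under 0.05), with the oligodendrocyte covariate (637) or at an FDR of 0.05 (1907), and 0 to 1675 with each library left out. Of the other guanylate kinase genes 1 was called with DESeq2 and 0 to 4 with a library left out (4 without control 1, 1 without SAP97-cKO 1). Of the partner genes 14 were called with DESeq2, 1 (Dlgap3) without the filter, and 0 to 17 with a library left out (17 without control 1, 10 without SAP97-cKO 1, 0 without any other). Over all genes, 1675 of 16469 were called without control 1 and 711 of 16474 without SAP97-cKO 1. With the meningeal covariate Gria1 (-0.21), Grin2a (-0.019) and Camk2a (-0.045) changed sign. That covariate is confounded with genotype, so neither these signs nor the lost Dlg1 call can be assigned to tissue composition. The ratio of Dlg1 to Dlg3 ran from -1.19 to -0.91 and that to Dlg4 from -1.25 to -0.98 with a library left out, and the permutation p was then 0.0571 without control 2 or 4 for Dlg3 and without any 1 control for Dlg4.

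The replicate numbers were not taken to pair the mice, since the labels state no pairing. Same-numbered libraries deviated together with r of -0.06 to 0.26, and 5 of 8 libraries correlated best with their own number. These values do not settle whether the mice were paired. With the replicate block 256 genes were called, among them 1 partner gene (Dlgap3) and Dlg1 (-0.87), and not Dlg2 (0.19), Dlg3 (0.16) or Dlg4 (0.21). The paired ratio differences, -1.07, -1.04 and -1.08 for Dlg2, Dlg3 and Dlg4, had an exact sign-flip p of 0.125, the smallest that 4 pairs can give, so the threshold was out of reach of that test. Depth was evened by the authors, so counting error cannot be set against the reads sequenced.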
